A study of Mus musculus with 12 samples.

Results

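The ubiquitin C-terminal hydrolases (UCH) are a small family of cysteine proteases that release ubiquitin from short adducts or from the proteins to which it is attached. The members described here are *Uchl1*, *Uchl3*, *Uchl5* and *Bap1*, without *Uchl4*, a near-identical copy of *Uchl3* in the mouse genome, and all 4 genes were found by symbol among the 56691 genes of the count table. UCHL1 is an abundant protein of neurons, germ cells and oocytes and is known to bind and stabilise free ubiquitin. UCHL3 hydrolyses ubiquitin and also the ubiquitin-like protein NEDD8. UCHL5 works in larger assemblies, bound to the receptor ADRM1 at the proteasome and to NFRKB in the INO80 chromatin remodeller. BAP1 is a nuclear enzyme which, with an ASXL partner, removes ubiquitin from histone H2A. Ubiquitin turnover accompanies meiotic maturation, since cyclin and securin are destroyed through the proteasome.

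The RNA came from oocytes of 3-week-old C57BL/6 females primed with PMSG, either wild type (WT) or *Alkbh5*-/- (KO). *Alkbh5* encodes an RNA m6A demethylase, and the KO line is a whole-body knockout in which the first exon with its start codon was removed by CRISPR-Cas9. Oocytes were collected at the germinal vesicle (GV) stage and matured in vitro, and libraries were labelled GV, GVBD (germinal vesicle breakdown) or MII (metaphase II). Each of the 6 groups held 2 libraries made from pooled oocytes, and nothing in the labels says whether the pools of a group came from separate animals, so p-values measure the spread between these pools. According to the study, stages were taken by time in culture and most KO oocytes did not reach GVBD, so in the KO GVBD and MII libraries genotype and stage cannot be told apart.

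The 4 genes lie on 3 chromosomes of GRCm38, all on the plus strand. *Uchl1* (ENSMUSG00000029223) occupies chr5:66676091-66687234, *Uchl3* (ENSMUSG00000022111) chr14:101653967-101696125, *Uchl5* (ENSMUSG00000018189) chr1:143777272-143807466 and *Bap1* (ENSMUSG00000021901) chr14:31251450-31259944. Their proteins differ in size, with 223 codons in *Uchl1*, 230 in *Uchl3*, 329 in *Uchl5* and 728 in *Bap1*, whose long tail carries the nuclear localisation signal. What the family shares is the catalytic core around the active-site cysteine, and the 27 coding bases around that codon are shown for each gene. They were read from GENCODE M21 transcripts, each window lies within a single coding exon, and the cysteine codon is in capitals.
Uchl1, codon 90, chr5:66679744-66679770: atcggaaactccTGTggtaccatcggg
Uchl3, codon 95, chr14:101666599-101666625: atcagcaatgccTGTggaacgattgga
Uchl5, codon 88, chr1:143794280-143794306: attaataatgctTGTgccactcaggct
Bap1, codon 91, chr14:31253459-31253485: attcccaactctTGTgccactcacgcc

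All members use the same cysteine codon. The windows of *Uchl1* and *Uchl3* were identical at 19 of 27 bases and those of *Uchl5* and *Bap1* at 20 of 27, whereas *Uchl1* and *Uchl5* shared 12. The cysteine was located by a short amino acid pattern that every window had to match, so part of this identity was set by the search. Over aligned coding bases, identity was 62.6% for *Uchl1* and *Uchl3*, 64.3% for *Uchl1* and *Uchl5* and 68.2% for *Uchl5* and *Bap1*. Between their principal transcripts *Uchl1* and *Uchl3* shared 0 of 1128 windows of 50 bases, a stretch shorter than the 150-base reads named in the labels.

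Pairs of overlapping or near-identical genes limit what the counts of *Uchl3* and *Uchl1* measure. *Uchl4* (ENSMUSG00000035337, chr9:64235201-64236362, plus strand, a gene with 1 exon) matched *Uchl3* at 672 of 690 aligned coding bases (97.4%), and its active-site window was the same as that of *Uchl3*. Of 854 windows of 50 bases in the *Uchl3* transcript, 292 (34.2%) also occurred in *Uchl4*, but at 150 bases only 1 of 754 windows did. The counts assigned to *Uchl4* were 5.88 to 8.12% of those of *Uchl3* in every library, and the part of them that came from *Uchl3* was not tested. The antisense gene *Uchl1os* (chr5:66626495-66676498, minus strand) covers 295 exonic bases of *Uchl1* (18.1%) at its 5′ end. The use of strand in counting is not stated, so reads from this stretch cannot be assigned to a strand. Counts of *Uchl1os* ranged from 458 to 2043, which was 4.73 to 16.1% of the *Uchl1* count in 10 libraries and 38.1 and 70.9% in the pair of WT MII libraries, where *Uchl1* was lowest.

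Libraries held 28.6 to 40.2 counts in units of 1e6, of which 221927 to 838409 fell on ERCC sequences, synthetic RNAs added to each tube before reverse transcription. The targeted gene followed the labels, with 5355 to 10181 counts of *Alkbh5* in WT libraries and 54 to 143 in KO libraries. All 14 oocyte marker genes were detected in every library, with summed levels of 27352 to 45615 CPM (counts scaled to the same library total of 1e6). Of 10 granulosa and cumulus markers, 1 to 4 were at 0 in a library, *Amh* and *Foxl2* most often, and their sum was 37.4 to 87.1 CPM, highest in KO MII replicate 2. That library also had the largest mitochondrial share (2.73%, the lowest library having 0.708%) and the fewest genes detected (19837, against up to 24436).

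To compare libraries, each count was multiplied by the mean ERCC count of the 12 libraries over the ERCC count of its own library, which gives a spike-scaled count. By the study's methods polyadenylated RNA was reverse transcribed, so this scale follows the polyadenylated RNA captured per tube. Endogenous counts per ERCC count fell from 102 ± 4.24 (SD, n = 2) at GV to 60.1 ± 18.6 at MII in WT, and from 119 ± 11.6 to 71.3 ± 23.5 in KO. Less of a transcript per oocyte, a shorter poly(A) tail and fewer intact oocytes per tube cannot be told apart on this scale. The study reported that poly(A) tails of maternal transcripts shortened during maturation in WT and that this was compromised in KO. The part of tail length in the differences below was not tested.

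*Uchl1* was by far the most variable of the abundant members. In spike-scaled counts, the WT libraries held 9900.1 and 7633 for GV oocytes, 6230.3 and 5138 for GVBD oocytes, and 1649 and 1389 for MII oocytes. The KO libraries held 10622 and 8866 for GV, 11803 and 12489 for GVBD, and 7297 and 3113 for MII. The WT libraries fell into 3 separate levels in the order of the stages. With 2 libraries per group, such a separation can arise without any change. Its share over all genes was not counted, and this holds for every separation given below. In KO the GVBD libraries were the highest of all 12, and the MII pair differed from each other by more than any other pair of *Uchl1* values.

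**Figure D1:**
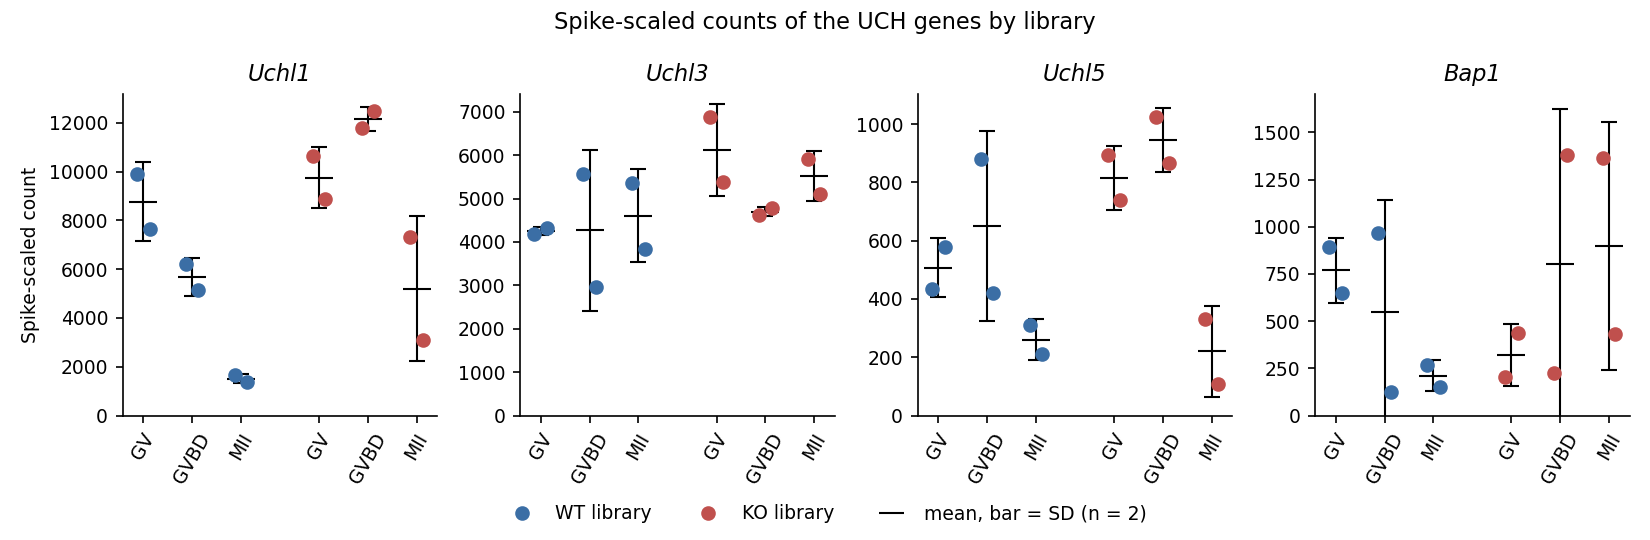
Spike-scaled counts (vertical axes, each from 0) of the 4 UCH genes in WT (blue) and KO (red) libraries at GV, GVBD and MII. Points are libraries and bars are the mean and SD of 2 libraries, cut at 0 for *Bap1* at GVBD. *Uchl1* is low in both WT MII libraries (1649 and 1389), *Uchl3* stays between 2959 and 6871 throughout, and the *Bap1* libraries of a group lie far apart at GVBD and in KO MII.

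From GV to MII in WT, *Uchl1* fell 5.77-fold, a log2 fold change of -2.53 with a standard error of 0.50 (edgeR quasi-likelihood test, adjusted p = 4.56e-06). A gene was called when its p, adjusted over all tested genes, was under 0.05 and its fold change at least 2 in either direction. Between GVBD and MII the drop was 3.74-fold (log2 fold change -1.90 ± 0.66, adjusted p = 0.0183), and between GV and GVBD the difference of -0.63 ± 0.36 was not called. When a library was left out, its group held 1 library, which was assumed to vary like the groups that still held 2. The GV to MII call did not hold without WT GV replicate 1 (-2.33, adjusted p = 0.0994), and the GVBD to MII call was lost on leaving out each of its 4 libraries in turn (adjusted p from 0.0865 to 0.332). Transcripts as a whole were lower at MII in WT, with a median log2 fold change of -1.06 over 18816 tested genes, and *Uchl1* lay at percentile 20.7 of them. With TMM scaling, which sets most of this common shift to 0, *Uchl1* was lower from GV to MII (-1.63, adjusted p = 0.00713), but the GVBD to MII difference no longer reached the fold required (-0.94 with TMM and -0.89 with median-of-ratios scaling).

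In KO the GV to MII difference of *Uchl1* was -0.90 ± 0.59 (adjusted p = 0.370), close to the median of all genes in that comparison (-1.17). Both KO MII libraries were below both KO GV libraries, but the value turned to 0.12 with TMM scaling (adjusted p = 0.775) and to 0.13 with median-of-ratios scaling (adjusted p = 0.741). It depended on which MII library was used, at -1.65 without KO MII replicate 1 (adjusted p = 7.36e-05) and -0.42 without KO MII replicate 2 (adjusted p = 0.325), each with the spread of the GV pair alone. The KO difference from GVBD to MII was -1.22 ± 0.70 (adjusted p = 0.337), with -1.96 (adjusted p = 0.0216) and -0.74 (adjusted p = 0.428) on the same omissions. From GV to GVBD, *Uchl1* was 0.32 ± 0.26 higher (adjusted p = 0.802). The difference between the genotypes in the GV to MII change, tested as an interaction, was 1.62 ± 0.69 and was not called (adjusted p = 0.790). It was 0.88 without KO MII replicate 1 and 2.11 without KO MII replicate 2. The study chose *Uchl1* for follow-up from transcripts that fell in WT and not in KO in these libraries, so its WT fall, its KO value and their difference are not independent evidence of a direction. By RT-qPCR, which is outside these libraries, the study reported impaired degradation of its chosen transcripts in KO oocytes.

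Between genotypes, *Uchl1* was nearly equal at GV (-0.18 with TMM scaling) and higher in KO at the later stages, without reaching the threshold at any of them. The GV oocytes of KO and WT differed by a log2 fold change of 0.15 ± 0.20 (adjusted p = 0.747). For GVBD the value was 1.10 ± 0.50, a 2.14-fold higher level in KO (adjusted p = 0.304), and for MII it was 1.78 ± 0.80, or 3.43-fold (adjusted p = 0.495). The MII value was 1.04 without KO MII replicate 1 and 2.26 without KO MII replicate 2. The KO and WT libraries overlapped at GV and did not overlap at GVBD or MII, a separation whose share over all genes was not counted. When the stages were fitted together, with a term for each stage, the KO difference was 1.01 ± 0.30, a 2.01-fold higher level in KO (adjusted p = 0.102). It passed the threshold with no filter on low counts (adjusted p = 0.0241), with only genes counted at least 10 times in every library (0.0411) and with DESeq2 (0.0139). In each of these the value (1.01) was barely over the fold required. The other settings did not call it, and over the settings with all libraries the value ran from 0.68 to 1.01. When a library was left out it ran from 0.73 to 1.17. The summed granulosa and cumulus markers lay higher in KO than in WT at every stage. They were at 51.2 and 51.4 CPM against 37.4 and 44.8 for GV, where *Uchl1* overlapped. For GVBD they were at 71.7 and 47.8 against 45.5 and 47.4, and for MII at 54.7 and 87.1 against 50.8 and 42.2. The sum does not stand for each marker. At GV the median KO against WT log2 fold change of the 8 markers tested was -0.36, against 0.36 for all genes. It was 0.91 against 0.23 at GVBD and 0.55 against 0.30 at MII. The part of these markers in the *Uchl1* difference was not tested. The choice of *Uchl1* by the study bears on its genotype differences as well.

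*Uchl3* was the steadiest member on the spike-scaled axis. The WT libraries held 4192 and 4314 for GV, 5575 and 2959 for GVBD, and 5366 and 3846 for MII. The KO libraries held 6871 and 5376 for GV, 4624 and 4772 for GVBD, and 5922 and 5114 for MII. Groups that share a stage or a genotype overlapped, with 3 exceptions, whose share over all genes was not counted. The KO GV libraries were above the WT GV and the KO GVBD libraries, and the KO MII libraries above the KO GVBD libraries. Its lowest and highest libraries were 2.32-fold apart, compared with 8.99-fold for *Uchl1*.

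The GV to MII difference of *Uchl3* was 0.12 ± 0.47 in WT (adjusted p = 0.901) and -0.15 ± 0.54 in KO (adjusted p = 0.890), while the median gene was at -1.06 and -1.17. *Uchl3* was at percentile 85.9 of the tested genes in WT and 82.7 in KO. Read relative to other transcripts, it was higher at MII in WT (0.98 with TMM, adjusted p = 0.00838, and 1.11 with median-of-ratios scaling, adjusted p = 0.00962). From GVBD to MII in WT it was 0.11 ± 0.63 on the ERCC scale (adjusted p = 0.929) and was called higher with TMM (1.11, adjusted p = 0.0144). In KO the GV to MII value turned sign, to 1.06 with TMM (adjusted p = 0.107) and 1.09 with median-of-ratios scaling (adjusted p = 0.111). The genotype difference for GV oocytes was 0.53 ± 0.19 (adjusted p = 0.234). The genotypes overlapped for GVBD and for MII, with log2 fold changes of 0.14 ± 0.52 and 0.26 ± 0.75. Between GV and GVBD it differed by 0.0044 ± 0.41 in WT and by -0.38 ± 0.26 in KO (adjusted p = 0.777). *Uchl4* counts moved with those of *Uchl3* (Pearson 0.956 over the 12 libraries after TMM scaling and 0.885 after ERCC scaling, a description of genes that share sequence).

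The ratio of *Uchl3* to *Uchl1* was highest in the WT MII libraries. To set genes side by side, counts were divided by the length of the principal annotated transcript and brought to the same total per library over 21786 protein-coding genes. By this level per length, *Uchl1* ranked between 379 and 1202 and *Uchl3* between 304 and 789, so both were within the top 5.52% in every library. *Uchl1* was chosen as an abundant oocyte transcript, so its place is not independent evidence of abundance. It was within the top 1.74% at its highest, in KO GVBD replicate 2, with a median of 2.43%. For *Uchl3* these values were 1.40% and 2.81%. *Uchl5* ranked 3423 to 5482 and *Bap1* 3418 to 9238. The WT libraries had *Uchl3* to *Uchl1* ratios of 0.552 and 0.737 for GV, 1.17 and 0.751 for GVBD, and 4.24 and 3.61 for MII. The KO libraries had ratios of 0.843 and 0.790 for GV, 0.511 and 0.498 for GVBD, and 1.06 and 2.14 for MII. Being taken within a library, the ratio does not depend on how libraries are scaled. The KO MII ratios lay above those of all GV libraries and below those of both WT MII libraries.

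**Figure D2:**
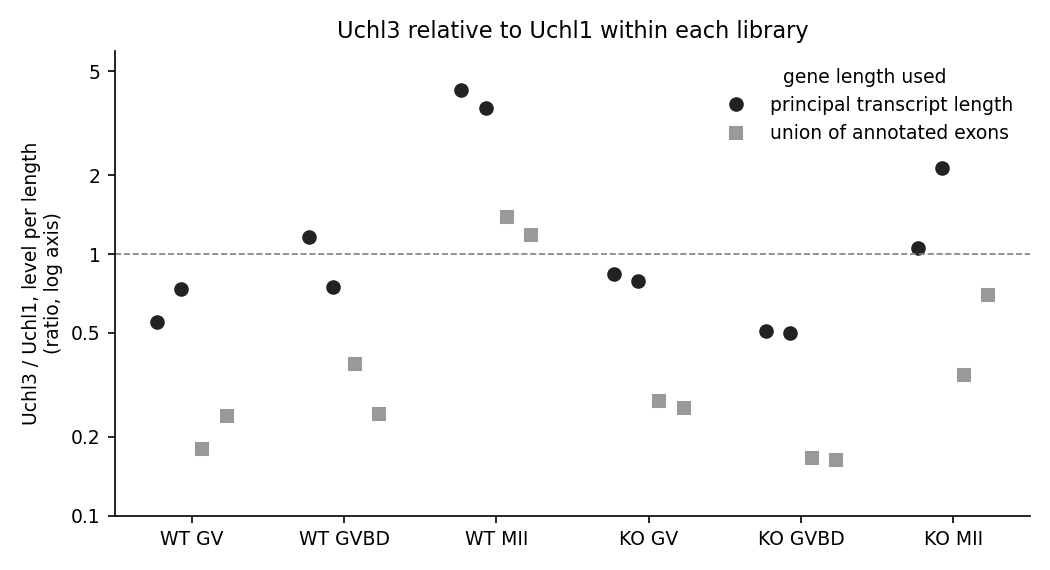
Ratio of *Uchl3* to *Uchl1* in level per length (log axis) for each of 12 libraries, with the length of the principal transcript (black circles) or of all annotated exons joined (grey squares). The dashed line marks a ratio of 1. WT MII libraries have the highest ratios on either length (4.24 and 3.61, or 1.39 and 1.18).

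The side of 1 on which a library fell depended on the annotated length of *Uchl3*, which is 903 bases for the principal transcript and 3831 for all exons joined, against 1177 and 1632 for *Uchl1*. With joined exons the ratio was above 1 only in the WT MII libraries (1.39 and 1.18) and 0.163 to 0.700 in the other 10. Among 93 deubiquitinase genes ranked by level per joined exon length, *Uchl1* was first in 7 of the 12 libraries, and it ranked 7 and 5 in the WT MII libraries. *Uchl3* ranked between 2 and 10, *Uchl5* between 29 and 46 and *Bap1* between 25 and 68. *Uchl1* made up 10.4 to 18.0% of the summed deubiquitinase level in the libraries other than WT MII and 4.01 and 5.43% there.

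*Uchl5*, the proteasome and INO80 member, was expressed at a lower level and was lowest at MII in both genotypes. The WT libraries held 435 and 579.6 spike-scaled counts for GV, 881 and 419.7 for GVBD, and 309 and 211 for MII. The KO libraries held 894 and 739 for GV, 1023 and 867 for GVBD, and 331 and 109 for MII. MII libraries were below all GV and GVBD libraries of their genotype, while the genotypes overlapped at MII.

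None of these differences of *Uchl5* was called by edgeR with the groups compared. MII against GV gave -0.97 ± 0.54 for WT (adjusted p = 0.177) and -1.89 ± 0.79 for KO (adjusted p = 0.173). MII against GVBD gave -1.32 ± 0.72 for WT (adjusted p = 0.161) and -2.10 ± 0.85 for KO (adjusted p = 0.129). The first of these was near the median of all genes (-1.06) and became 0.033 with median-of-ratios scaling. In KO the GVBD to MII difference passed with DESeq2 (adjusted p = 0.0357), with all 12 libraries in 1 model (0.0402) and with a replicate block (-2.31, adjusted p = 0.0409), and the block also brought the WT difference from GVBD to MII past the threshold (-1.25, adjusted p = 0.0272). The KO differences depended on the MII library used. Without KO MII replicate 1 they were -2.90 from GV (adjusted p = 3.20e-05) and -3.12 from GVBD (adjusted p = 0.00863), and without KO MII replicate 2 they were -1.30 (adjusted p = 0.0543) and -1.51 (adjusted p = 0.154), in each case with the spread of the other group alone. The KO and WT libraries did not overlap for GV, where KO was 0.69 ± 0.28 higher (adjusted p = 0.282). The share of all genes with such a separation was not counted. The genotype values for GVBD and MII were 0.54 ± 0.55 and -0.24 ± 0.93. Between GV and GVBD the differences were 0.36 ± 0.49 in WT and 0.21 ± 0.32 in KO, so GVBD libraries were not parted from GV libraries in either genotype.

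*Bap1*, the nuclear member, differed most between libraries of the same group. The WT libraries held 892 and 649 spike-scaled counts for GV, 969.5 and 127 for GVBD, and 270.4 and 152 for MII. The KO libraries held 206 and 438 for GV, 225 and 1383 for GVBD, and 1362 and 432 for MII. In WT both MII libraries lay below both GV libraries, while in KO the MII and GV libraries overlapped.

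*Bap1* fell 3.65-fold between the WT GV and MII libraries (log2 fold change -1.87 ± 0.55, adjusted p = 0.00328). The call was lost without WT GV replicate 1 (-1.62, adjusted p = 0.282), without WT GV replicate 2 (-2.08, adjusted p = 0.144), without WT MII replicate 2 (-1.51, adjusted p = 0.0681), with all 12 libraries in 1 model (adjusted p = 0.202) and with median-of-ratios scaling (-0.93, adjusted p = 0.0589). In KO the same comparison gave 1.48 ± 0.81 (adjusted p = 0.284), at percentile 99.4 of tested genes, and it was 2.08 without KO MII replicate 2 (adjusted p = 0.00642) and 0.42 without KO MII replicate 1 (adjusted p = 0.474), each with the spread of the GV pair alone. Among libraries labelled MII, *Bap1* was 2.09 ± 0.90 higher in KO (adjusted p = 0.434). Among GV libraries the KO value was the lower, with a log2 fold change of -1.26 ± 0.43 (adjusted p = 0.220). The genotypes did not overlap in either case, and the share of all genes that did so was not counted. The MII value was 1.03 without KO MII replicate 1 and 2.69 without KO MII replicate 2. Among libraries labelled GVBD the genotypes overlapped (0.56 ± 0.78, adjusted p = 0.806). The change from GV to GVBD was -0.49 ± 0.80 in WT and 1.32 ± 0.75 in KO (adjusted p = 0.724). The interaction of genotype with the GV to MII change was the largest among the members, 3.34 ± 0.96, and was not called (adjusted p = 0.513). It passed with DESeq2 (adjusted p = 0.0426), with no filter on low counts (0.0303) and without KO MII replicate 2 (3.95, adjusted p = 0.0283), and was 2.29 without KO MII replicate 1 (adjusted p = 0.189).

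**Figure D3:**
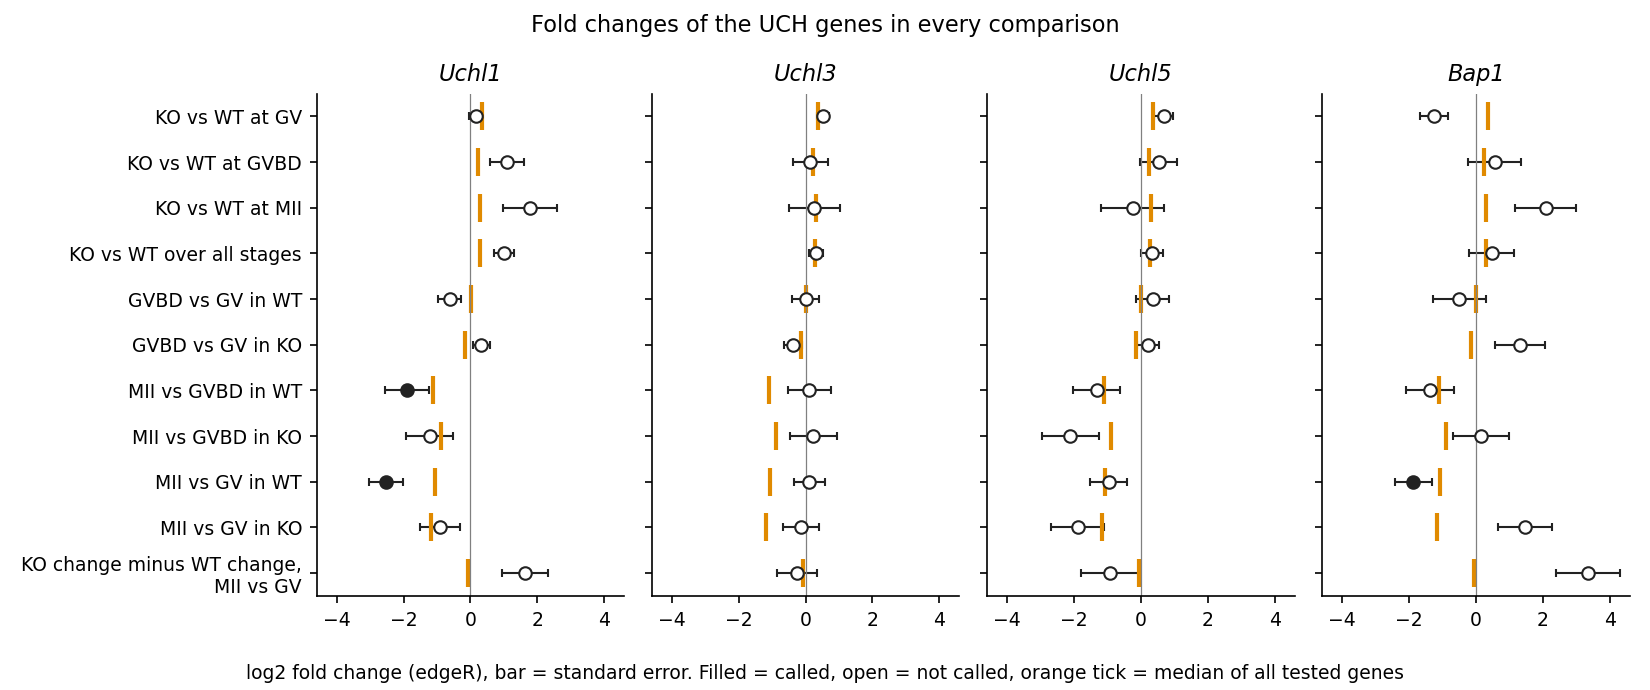
Log2 fold change of each UCH gene (points, edgeR) with its standard error (bars) in 11 comparisons, filled where called. Orange ticks are the median of all genes tested. The filled points are *Uchl1* from GV to MII (-2.53) and from GVBD to MII (-1.90) in WT and *Bap1* from GV to MII in WT (-1.87).

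Counted over the family, 2 of 4 members, *Uchl1* and *Bap1*, were called lower from GV to MII in WT, where 30.5% of all tested genes were called lower and 0.393% higher. For GVBD to MII in WT it was 1 of 4, *Uchl1*, against 27.1% of all genes called lower. With 4 members, these shares are not a result about the family. In KO edgeR called no member from GV to MII (3.28% of all genes called lower) or from GVBD to MII (7.12%), and *Uchl5* had an unadjusted p under 0.05 in both. DESeq2 called no member in the first of these (16.3% of all genes called) and *Uchl5* in the second (12.6%). For GV to GVBD neither tool called a member and none had an unadjusted p under 0.05. There edgeR called 0.0511% of all genes in WT and 0.22% in KO, and DESeq2 1.9% and 1.18%.

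Between genotypes edgeR called no member among GV (0.0977% of all genes called), GVBD (2.54%) or MII libraries (0.803%), or over all stages (1.26%). Unadjusted p-values under 0.05 were found for 2 members at GV (*Uchl3* and *Bap1*), 1 at GVBD (*Uchl1*), 2 at MII (*Uchl1* and *Bap1*) and 1 over all stages (*Uchl1*). DESeq2 called *Bap1* at GV (adjusted p = 0.0460, with 3.48% of all genes called) and *Uchl1* over all stages (6.16% of all genes). It called no member at GVBD (4.63%) or MII (1.97%). The interaction was called by edgeR for 0 of 20807 genes (0%), with *Uchl1* and *Bap1* under 0.05 before adjustment, and DESeq2 called *Bap1* and 0.702% of all genes. Comparisons that include the same libraries are not independent of each other.

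Several genes for ubiquitin itself, the substrate of the family, fell between GV and MII. Of 9 genes for ubiquitin and NEDD8 precursors and their activating enzymes, 5 were called lower from GV to MII in WT and none higher, where 30.5% of all tested genes were called lower, with a list median of -1.51 against -1.06 for all genes. *Rps27a*, a ubiquitin and ribosomal protein fusion, had a log2 fold change of -6.37 ± 0.58. The polyubiquitin gene *Ubb* was at -3.18 ± 0.43 and *Nedd8* at -1.66 ± 0.45. In KO, where 3.28% of all genes were called lower, 2 of 9 were, *Rps27a* (-4.87 ± 0.69, adjusted p = 0.0300) and *Ubb* (-2.51 ± 0.54, adjusted p = 0.0417). No gene of this list was called between the genotypes.

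Partners of UCHL5 in the proteasome and in INO80 differed among themselves. Of 13, 5 were called lower from GV to MII in WT, against 30.5% of all genes, and none higher, with a median of -0.84 against -1.06. The 4 with the largest fall were the INO80 subunits *Ino80c* (-2.93 ± 0.62), *Tfpt* (-2.92 ± 0.53) and *Ino80e* (-2.30 ± 0.58) and the proteasome ubiquitin receptor *Adrm1* (-2.62 ± 0.56). *Psmd1*, the proteasome subunit that holds ADRM1, was at 0.31 ± 0.47 and was not called. In KO no partner passed the edgeR test from GV to MII (3.28% of all genes called lower and list median -1.06 against -1.17 for all genes), with *Adrm1* at -3.08 ± 0.90 (adjusted p = 0.0766). *Ruvbl1*, an ATPase of INO80, was the only partner called between the genotypes, over all stages, at 1.41 ± 0.24 (adjusted p = 0.0142). In that comparison 1.26% of all genes were called.

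Most partners of BAP1 had values near 0. Of 10, only *Mbd6* was called lower in WT MII than in WT GV (-2.88, adjusted p = 0.0154), where 30.5% of all genes were, and the list median was -0.11 against -1.06 for all genes. The scaffold gene *Hcfc1* was at -0.12 ± 0.53. In KO none was called, against 3.28% of all genes called lower, and the median was -0.30 against -1.17. No partner of BAP1 was called between the genotypes.

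Of 30 deubiquitinase genes of the OTU, MJD, JAMM, MINDY and ZUP1 families, 28 were tested from GV to MII in WT and 11 were called lower, with none higher, against 30.5% of all genes called lower, and the median was -1.19 against -1.06. The largest falls were those of *Mindy4* (-5.50 ± 0.57), *Josd2* (-4.45 ± 0.95), *Otub1* (-3.43 ± 0.52) and *Otulin* (-3.39 ± 0.73), the last being specific for linear ubiquitin chains. In KO 2 of 26 were called lower, against 3.28% of all genes, *Otulin* (-4.61 ± 0.95) and *Mindy4* (-3.90 ± 0.73), and none was called between the genotypes.

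The same genes were compared between GVBD and MII, where 27.1% of all genes were called lower in WT and 7.12% in KO. In WT 3 of 9 ubiquitin and NEDD8 genes were called lower, *Rps27a* first (-5.92 ± 0.76). Of the 13 UCHL5 partners 5 were lower and *Ruvbl2* was higher (1.89 ± 0.68, adjusted p = 0.0231), of the 10 BAP1 partners *Mbd6* (-3.02 ± 0.95) and *Asxl1* (-1.70 ± 0.68) were lower, and of 28 deubiquitinases 9 were lower. In KO *Rps27a* and *Ubb*, the UCHL5 partners *Adrm1* (-3.21 ± 0.90, adjusted p = 0.0259) and *Ino80e* (-2.91 ± 0.88, adjusted p = 0.0389), no BAP1 partner and 4 of 26 deubiquitinases were called lower. Among those 4 was *Psmd14*, the deubiquitinase of the proteasome lid (-2.84 ± 0.82, adjusted p = 0.0296).

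Markers of the sampled cells were read in the same fits. Of 14 oocyte markers, 4 were called lower from GV to MII in WT, against 30.5% of all genes, among them the zona pellucida genes *Zp2* (-2.57 ± 0.45) and *Zp3* (-2.54 ± 0.47), 1 was called higher (*Oosp1*, 1.02 ± 0.40), and none was called in KO or between the genotypes. Of 7 granulosa and cumulus markers tested, *Inha* and *Inhba* were called lower in WT, *Inha* with 0 counts in both MII libraries. The only marker called between the genotypes was *Fshr*, the FSH receptor gene, higher in KO at GVBD (3.38 ± 0.69, adjusted p = 0.00897). In that comparison 2.54% of all genes were called.

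**Figure D4:**
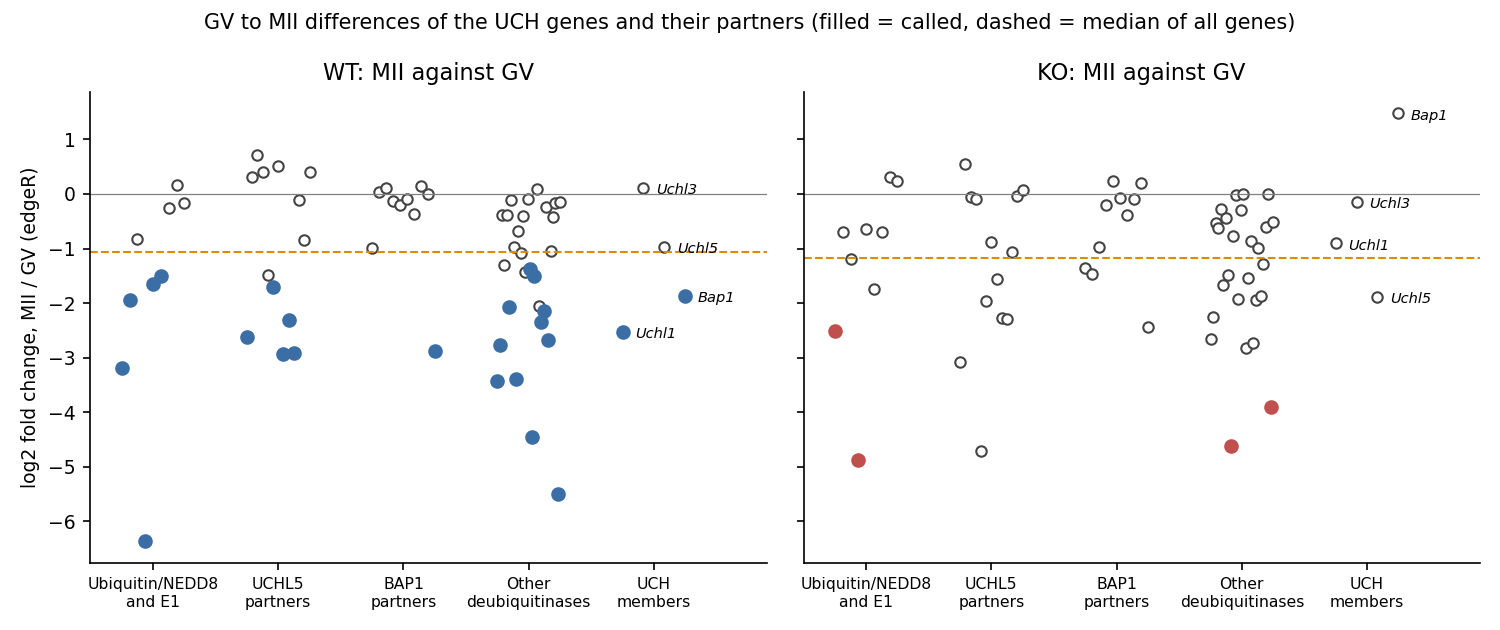
Log2 fold change from GV to MII (edgeR) in WT (left) and KO (right) for the 4 gene lists and the UCH members, 1 point per tested gene, filled where called. The dashed line is the median of all genes, -1.06 in WT and -1.17 in KO. BAP1 partners lie mostly near 0, and *Uchl3* lies above the line in both genotypes.

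Each member had a different set of nearest neighbours among 10835 named genes (mean count 50 or more), by Pearson correlation of log2 TMM-scaled CPM over the 12 libraries. Nearest to *Uchl1* were *Gosr2*, a Golgi SNARE (0.966), *Tusc2* (0.944) and *Mrps24*, a mitochondrial ribosomal protein (0.939). Nearest to *Uchl3* were *Sarnp*, an mRNA export factor (0.986), *St7* (0.984) and *Mkln1*, a subunit of the CTLH ubiquitin ligase (0.981). Nearest to *Uchl5* were *Hspa9*, a mitochondrial chaperone (0.957), *Mob3a* (0.945) and *Ppif* (0.943). Some neighbours had few counts in a library, with *Mob3a* at 0 to 150, *Ppif* at 18 to 184 and *Tusc2* at 31 to 211, so their correlations include values near the floor. *Bap1* had weaker neighbours, with *Ing2* (0.820), *Tbck* (0.819) and *E2f2* (0.796). With ERCC scaling 1 of 3 names was kept for *Uchl1*, *Uchl5* and *Bap1* and 2 of 3 for *Uchl3*. These values describe 12 libraries that share their stages and groups and are not tests. Between members, *Uchl1* and *Uchl3* had a correlation of -0.462 on the TMM scale and 0.214 on the ERCC scale, and *Uchl3* and *Uchl5* had -0.756 and 0.212.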

How the data were processed

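The series held 12 RNA-seq libraries of pooled oocytes, 2 per genotype and stage. The deposited values are raw counts per gene that the authors made without normalization. By the study's methods, reads were trimmed with cutadapt and aligned with HISAT2 to GRCm38 joined to the ERCC sequences, and uniquely mapped reads were passed to StringTie. The submitters' processing notes name cutadapt 1.9, HISAT2 2.0.4 and StringTie 1.3.4d, and the study names other versions of cutadapt and HISAT2. The step that gave whole counts and the use of strand are not given in the sources used here. The labels describe a bulk RNA preparation and the methods a SMART-seq protocol. Reads carried no molecular identifiers, so counts are not independent molecules, and how many molecules lie behind them is unknown.

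All 12 count columns were assigned by their labels and 0 columns were left without a sample. Each comparison was fitted on all genes of its groups with edgeR 4.0.16 (R 4.3.3, quasi-likelihood test, two-sided), with library sizes proportional to the ERCC counts and genes kept by filterByExpr. P-values of all tested genes were adjusted together (Benjamini-Hochberg), and a call needed an adjusted p under 0.05 and an absolute log2 fold change of at least 1. Standard errors came from the log2 fold change and the F statistic. Every adjusted p in the text is from edgeR unless DESeq2 1.42.0 is named. Symbols were matched for 52073 genes (91.9%). On simulated counts, 28% of 8-fold and 0% of 4-fold changes were recovered for KO against WT at MII (100 genes each among 16638), and 77% and 36% for MII against GV in WT (18058 genes). There were 2 and 6 calls among unchanged genes. Changes were planted only in genes above a minimum count and no shift common to all genes was simulated, so these shares are not the recovery in the real comparisons.

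The members, the partner and marker lists and the rules were chosen with earlier results of these data known. Genes named are the 4 members, *Alkbh5*, *Uchl4*, up to 4 called genes per list with the largest absolute log2 fold change (or, with none called, the most abundant) and the 3 genes most like each member, and *Uchl1os*, *Psmd1*, *Hcfc1*, *Ruvbl2*, *Oosp1*, *Amh*, *Foxl2* and the KO value of *Adrm1* were added after their values were seen. Some items are not reported here. The results were recomputed with other scalings (TMM, median-of-ratios, or only those ERCC sequences counted 10 times or more in every library), with no filter or a stricter filter on low counts, with DESeq2, with all 12 libraries in 1 model, with a replicate block and with each library left out in turn, where the spread comes from the groups that still hold 2 libraries. Crossed replicate numbers and the joined-exon length were added after seeing the data.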

Additional observations from a re-analysis of the deposited data

Results flagged for a closer look

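*Uchl1* moved in opposite directions between GV and GVBD in the genotypes. Both WT GVBD libraries were below both WT GV libraries (log2 fold change -0.63), and both KO GVBD libraries were above both KO GV libraries (0.32), a difference of 0.94 on the log2 scale. The difference was not tested, and neither change was called. With 2 libraries per group, such a separation can arise without any change. Its share over all genes was not counted, here or for the other separations given for the members.

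*Bap1* was lower in both KO libraries than in both WT libraries at GV and higher at MII. The difference of these effects was 3.34 ± 0.96 on the log2 scale (interaction in edgeR, adjusted p = 0.513), which did not pass the threshold after adjustment over all genes. Groups of 2 libraries are too small to ask whether a library stands apart from its group.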

How the results depend on the processing

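Of 588 log2 fold changes of the members under an alternative, 527 kept their direction and side of the threshold, 20 newly passed, 12 no longer passed and 29 changed sign, in 16 of 44 pairs of gene and comparison. The cause of these changes was not tested. The number of members called was 1 in place of 0 with DESeq2 for KO against WT at GV, and also 1 over all stages with no filter, with the stricter filter and with DESeq2. For MII against GV in WT it was 1 in place of 2 with all 12 libraries in 1 model and ranged from 0 to 2 when a library was left out. With median-of-ratios scaling it stayed at 2, but these were *Uchl1* and *Uchl3*, the latter higher (1.11). For MII against GV in KO it ranged from 0 to 2 and for GVBD against GV in KO from 0 to 1 on leaving out a library, the latter through *Bap1* without KO GVBD replicate 1 (2.098, adjusted p = 0.0227). For MII against GVBD in WT it was 0 whichever library was left out, and *Uchl1* kept its adjusted p under 0.05 but not its fold with TMM (-0.94) and median-of-ratios scaling (-0.89), where the 1 member called was *Uchl3*, higher at MII (1.11, adjusted p = 0.0144, and 1.16, adjusted p = 0.0141). For MII against GVBD in KO it was 1 with DESeq2, with all 12 libraries and with a replicate block, and 0 to 2 on leaving out a library. For the interaction it was 1 with no filter and with DESeq2, and 0 to 1 on leaving out a library.

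TMM and median-of-ratios scaling reversed *Uchl1* for KO against WT at GV (-0.18 and -0.20), *Uchl3* at GVBD (-0.076 and -0.075), and for MII against GV in KO both *Uchl1* (0.12 and 0.13) and *Uchl3* (1.06 and 1.09). Median-of-ratios scaling turned *Uchl5* for MII against GV in WT to 0.033. Leaving out a library gave ranges that include 0 for KO against WT in *Uchl1* at GV (-0.023 to 0.35), *Uchl3* at GVBD (-0.25 to 0.67), *Bap1* at GVBD (-1.28 to 2.67), *Uchl5* at MII (-1.25 to 0.35) and *Bap1* over all stages (-0.047 to 0.999). For MII against GV it did so in *Uchl3* in WT (-0.15 to 0.34) and KO (-0.32 to 0.037). For GVBD against GV it did so in WT for *Uchl3* (-0.52 to 0.39), *Uchl5* (-0.27 to 0.80) and *Bap1* (-2.60 to 0.33), and in KO for *Bap1* (-0.52 to 2.098). For MII against GVBD it did so in WT for *Uchl3* (-0.28 to 0.64) and *Bap1* (-2.20 to 0.74), and in KO for *Bap1* (-0.90 to 1.99).

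Same-numbered libraries were not shown to be paired, with correlations of their deviations from -0.241 to 0.252 and only 2 numbers. The replicate block called 2 members for MII against GVBD in WT (*Uchl5* at -1.25, adjusted p = 0.0272) and 1 in KO, turned *Uchl3* for GVBD against GV in WT to -0.066, and changed no other member's call. With crossed numbers 218 genes were called at GV, 0 at MII (KO against WT) and 204 from GVBD to MII in KO. Over all genes, the 74 higher and 5747 lower calls for MII against GV in WT became 1329 and 3193 with TMM scaling and 1871 and 2954 with median-of-ratios scaling, and the median log2 fold change moved from -1.06 to -0.22 with TMM. For KO against WT at MII the 141 calls became 43 with TMM, 2 with median-of-ratios scaling, 346 with DESeq2 and 4 with the block. At GV the 19 calls became 676 with DESeq2 and 0 with the block, and at GVBD the 494 became 32 with TMM and 901 with DESeq2. The median ratio of *Uchl3* to *Uchl1* was 0.817 with the principal transcript and 0.267 with joined exons.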
